A study of Mus musculus with 19 samples.

Results

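The miRNAs described here are the products of the precursors named miR-126, miR-143, miR-145, miR-199a, miR-199b and miR-214, which are known mainly from the cells of vessel walls and from mesenchyme. They were taken by name, as every mature miRNA whose name begins with 1 of these numbers followed by a hyphen, and both arms were kept. This gave 12 of the 1148 mature miRNA names counted in each library. They were followed in small RNA libraries of the hippocampal CA1 subregion, microdissected from WT mice whose strain is labelled C57B/6JRj. The 6 OldSAHA libraries came from animals of 20 months given SAHA at 0.67 g per L in drinking water with 18 g per L of cyclodextrin, the 5 OldVeh libraries from animals of 20 months given the cyclodextrin vehicle alone, and the 8 YoungVeh libraries from animals of 3 months given that vehicle. SAHA (vorinostat) inhibits histone deacetylases. All 3 groups therefore received cyclodextrin, and the aged animals were treated for 4 weeks. How long the young animals were treated, their sex and any pooling are not stated in the sources used here. The labels name the libraries as separate samples without saying that each came from its own animal, so the p-values below measure the spread between these samples.

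A miRNA precursor is a short RNA hairpin whose stem is cut into a 5p and a 3p product, and the bases that follow the first base of the mature product, the seed, pair with target messenger RNAs. miR-126 is hosted by the gene Egfl7 and is the best known miRNA of endothelial cells, where it sustains signalling by vascular endothelial growth factor. miR-143 and miR-145 are neighbours on the genome and are abundant in smooth muscle and pericytes, where they favour the contractile state, and miR-199a and miR-214 are transcribed from Dnm3os in mesenchymal cells. The comparisons ask whether these miRNAs differ in CA1 with age and with the drug. In tissue RNA, fewer cells of a type and less of a miRNA per cell cannot be told apart.

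The mature sequences found in the RefSeq table for GRCm38.p6 are shown to make clear which of the counted names can be told apart by sequence, and the table held 6 of the 12. They are given 5′ to 3′ with the seed, bases 2 to 8, in capitals.

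miR-126-3p: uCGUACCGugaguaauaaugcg
miR-199a-5p: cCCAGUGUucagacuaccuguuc
miR-199a-3p: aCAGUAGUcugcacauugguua
miR-199b-3p: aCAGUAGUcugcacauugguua
miR-214-5p: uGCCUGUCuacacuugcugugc
miR-214-3p: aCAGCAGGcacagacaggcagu

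miR-199a-3p and miR-199b-3p have 1 and the same mature sequence and so the same seed, which no other name among the 1679 mature names of the table carries. The seed of miR-214-3p is shared with miR-761. The seeds of miR-126-3p, miR-199a-5p and miR-214-5p are shared with no other name in the table. Names absent from the table, miR-199b-5p among them, could not be compared. The 5p side of the precursor Mir199b also holds the bases CCAGUGU, so the seed of miR-199a-5p may be shared with miR-199b-5p. miR-126-5p, miR-199b-5p and both arms of miR-143 and miR-145 are named only.

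In the GRCm38 (mm10) build the precursor Mir126a lies at chr2:26591357-26591429 on the plus strand, within Egfl7 and an intron of Gm20532 in GENCODE M21. It overlaps an exon of some annotated transcript of Egfl7, and the transcripts were not examined separately. Mir126a also overlaps the antisense precursor Mir126b. The sources used here do not say whether counting used strand, so reads of these opposed precursors may not be told apart. Mir199a-2 (chr1:162217814-162217923) and Mir214 (chr1:162223368-162223477) lie 5444 bases apart on the plus strand. Both overlap an exon of some annotated transcript of the noncoding gene Dnm3os and lie in an intron of Dnm3, which is read from the other strand. The other miR-199a locus, Mir199a-1, lies in an intron of Dnm2 on the opposite strand (chr9:21496495-21496564), and Mir199b lies in an intron of Dnm1 on the opposite strand (chr2:32318460-32318569). Each of these 3 positions places a precursor of the miR-199 family within a dynamin gene. The hairpins that give the shared miR-199 3p sequence are shown with that arm in capitals, since the loci differ outside it.

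Mir199a-1: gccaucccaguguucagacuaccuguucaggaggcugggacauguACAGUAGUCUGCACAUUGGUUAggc
Mir199a-2: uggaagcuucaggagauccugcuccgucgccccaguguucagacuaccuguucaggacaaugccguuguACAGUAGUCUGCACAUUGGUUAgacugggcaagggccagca
Mir199b: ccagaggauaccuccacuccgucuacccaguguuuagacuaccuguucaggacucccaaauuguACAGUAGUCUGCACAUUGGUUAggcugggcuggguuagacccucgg

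Reads assigned to miRNAs totalled 3585489 to 6808281 per library, the lowest in YoungVeh 4, and 680 to 735 names had at least 1 read. The labelled tissue was checked against miRNAs of neurons, which summed to 73601 to 79700 CPM (counts scaled to library size by the TMM method) in OldSAHA, 86456 to 91956 in OldVeh and 85342 to 95806 in YoungVeh, and none of these 17 names was at 0 in any library. The neuronal sums of OldSAHA thus lay below those of both vehicle groups. The median correlation of log2 CPM of OldSAHA 1 with its group was 0.989, the lowest of the 19 libraries. The part of these differences in the results below was not tested.

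miR-143-3p was the most abundant of the 12 miRNAs, followed by the miR-126 arms, and the remaining names were present at low levels. Over the 19 libraries miR-143-3p averaged 26072 ± 12388 CPM (SD, n = 19), the 11th highest mean of the 509 miRNAs with enough counts to be tested. miR-126-5p averaged 8772 ± 1299 CPM, the 26th highest, and miR-126-3p 1258 ± 157 CPM, the 70th highest. These 3 levels and that of miR-145-3p (78.6 ± 23.01 CPM) had ranges that did not overlap, in the same order in 19 of 19 libraries.

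Below them the order was less fixed. miR-145-5p averaged 57.3 ± 22.1 CPM and was under miR-145-3p in 18 of 19 libraries, and miR-199a-3p averaged 55.3 ± 17.0 CPM. miR-145-5p exceeded miR-199a-3p in only 8 of 19 libraries, so these neighbours did not differ beyond their spread. miR-199b-3p averaged 27.3 ± 8.38 CPM, miR-199a-5p 10.3 ± 4.85 CPM and miR-143-5p 2.30 ± 1.48 CPM (SD, n = 19). In total the 12 names took 3.92% ± 1.73 of miRNA counts in OldSAHA (SD, n = 6), 3.38% ± 1.10 in OldVeh (n = 5) and 3.56% ± 1.17 in YoungVeh (n = 8).

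**Figure D1:**
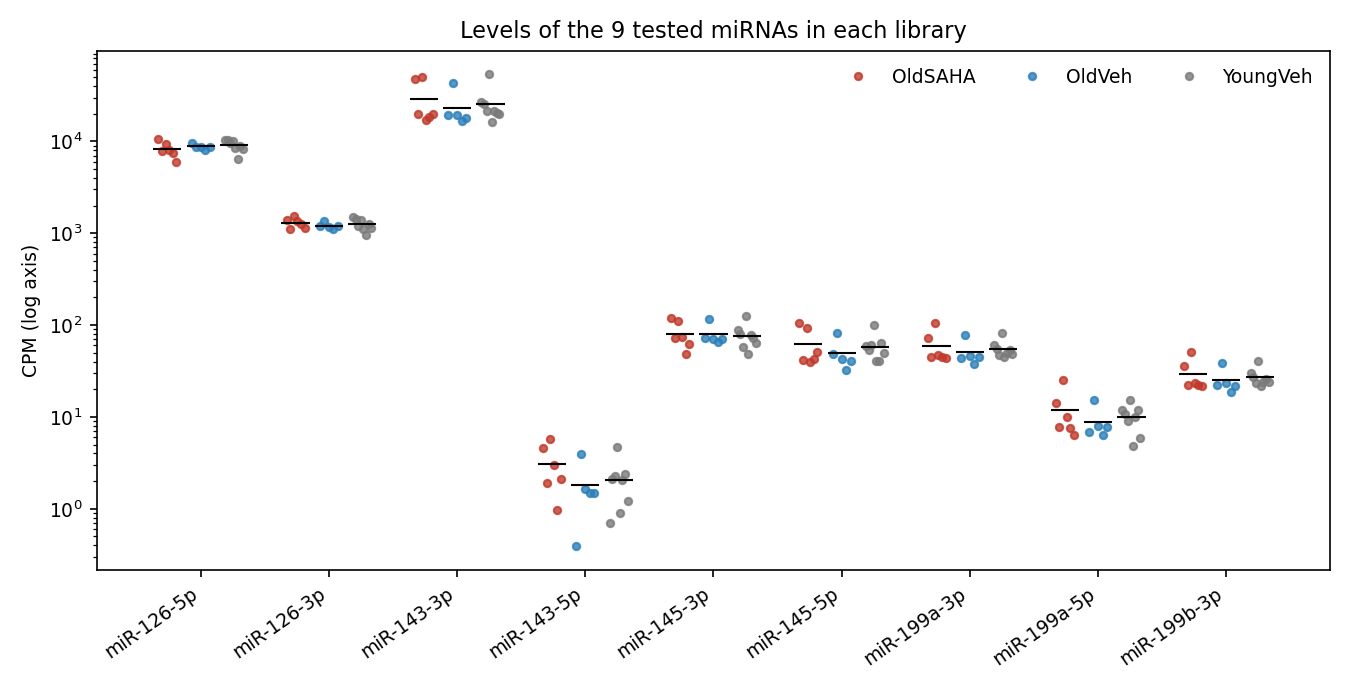
CPM of the 9 tested miRNAs on a log axis, with 1 point per library and a bar at each group mean (OldSAHA n = 6, OldVeh n = 5, YoungVeh n = 8). The groups overlap for each miRNA, and 4 libraries stand above the rest for miR-143-3p, at 42865 to 53768 CPM.

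Of the 12 names, 9 had enough counts to be tested, and the other 3 had a handful of reads per library. miR-199b-5p had 58 reads over all 19 libraries, with 2 to 5 per library in OldSAHA, 1 to 4 in OldVeh and 2 to 7 in YoungVeh. miR-214-3p had 83 reads, with 2 to 14 in OldSAHA, 0 to 7 in OldVeh and 2 to 11 in YoungVeh. Its highest counts were 14 in OldSAHA 3 and 11 in YoungVeh 4, and it had no read in OldVeh 3, which allows up to 0.622 CPM there (3 reads, counting error only). miR-214-5p had 35 reads, with 0 to 5 in OldSAHA, 0 to 5 in OldVeh and 0 to 3 in YoungVeh. With no filter on low counts all 12 names entered the edgeR fit, and 0 were called in each of the 3 comparisons.

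The miR-199 3p sequence entered the tables under both names in a fixed ratio. The count of miR-199a-3p was 2 to 2.05 times that of miR-199b-3p in the 19 libraries, exactly 2 in 2 of them, with an excess of 0 to 9 reads over that ratio. RefSeq lists 2 loci for miR-199a-3p and 1 for miR-199b-3p. With an identical sequence and a fixed ratio the 2 names carry 1 measurement, and a count of calls over the list holds it under both. The sources used here do not say how reads matching several loci were counted.

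The endothelial miR-126 arms passed the test in none of the 3 comparisons. miR-126-5p ranged from 5973 to 10658 CPM in OldSAHA with a median of 7943. It had 9734, 8758, 8751, 8167 and 8789 CPM in OldVeh, and in YoungVeh it ranged from 6420 to 10490 CPM with a median of 9271. The groups overlapped, with the lowest levels in OldSAHA 6 and YoungVeh 6. The log2 fold change was -0.04 ± 0.12 (SE) for OldVeh against YoungVeh (95% interval -0.29 to 0.20, adjusted p 0.892). It was -0.10 ± 0.12 for OldSAHA against OldVeh (-0.36 to 0.17, adjusted p 0.717) and -0.14 ± 0.11 for OldSAHA against YoungVeh (-0.38 to 0.10, adjusted p 0.401). These and the following adjusted p-values are from the edgeR quasi-likelihood F test with Benjamini-Hochberg adjustment over all 509 tested miRNAs. Without OldSAHA 1 and YoungVeh 6 together, the libraries an earlier analysis of these data set apart, the last value was -0.29 ± 0.09 with an adjusted p of 0.0230, a call that was absent with all libraries. OldSAHA 1 had the highest level of OldSAHA (10658 CPM) and YoungVeh 6 the lowest of YoungVeh (6420 CPM). Leaving both out therefore widens this difference by itself, and the call is no separate support for it.

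miR-126-3p, the arm whose seed is shown above, was steadier. It ranged from 1126 to 1551 CPM in OldSAHA with a median of 1307, was 1207, 1348, 1180, 1120 and 1201 CPM in OldVeh, and ranged from 958 to 1517 CPM in YoungVeh with a median of 1231. The log2 fold change was -0.05 ± 0.10 for OldVeh against YoungVeh (adjusted p 0.839), 0.11 ± 0.10 for OldSAHA against OldVeh (0.640) and 0.06 ± 0.09 for OldSAHA against YoungVeh (0.691) by edgeR. All 3 intervals for this arm lay within -0.26 and 0.33 on the log2 scale.

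miR-143-3p, the smooth muscle and pericyte miRNA, fell into separate levels that did not follow the groups. It had 47891, 20032, 49974, 17224, 18285 and 20086 CPM in OldSAHA 1 to 6. In OldVeh 1 to 5 it had 19287, 42865, 19408, 16642 and 18056 CPM, and in YoungVeh it ranged from 16241 to 53768 CPM with a median of 21442. OldSAHA 1, OldSAHA 3, OldVeh 2 and YoungVeh 4 stood above 40000 CPM, and the next highest library, YoungVeh 1, had 26897 CPM. Each group thus held at least 1 high library. With them the spread between libraries of a group was wide, with means of 28915 ± 15557 CPM in OldSAHA (SD, n = 6), 23252 ± 11021 in OldVeh (n = 5) and 25703 ± 11813 in YoungVeh (n = 8).

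The fold changes of miR-143-3p were correspondingly imprecise. The log2 fold change was -0.14 ± 0.36 for OldVeh against YoungVeh, with a 95% interval from -0.90 to 0.61 (adjusted p 0.877). For OldSAHA against OldVeh it was 0.31 ± 0.38, with an interval from -0.49 to 1.11 (0.698), and for OldSAHA against YoungVeh 0.17 ± 0.33, from -0.54 to 0.88 (0.758, edgeR). A change of 2-fold for SAHA at 20 months therefore lay inside the interval, and a p that misses the threshold does not show equal levels. miR-143-5p, the minor arm of the hairpin, had 2 to 32 reads per library, with 3.06 ± 1.81 CPM in OldSAHA, 1.81 ± 1.32 in OldVeh and 2.05 ± 1.26 in YoungVeh. Its fitted values were -0.09 ± 0.49, 0.77 ± 0.48 and 0.68 ± 0.42 for the same 3 comparisons (adjusted p 0.957, 0.409 and 0.266, edgeR).

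The miR-145 arms showed the same high libraries. Their precursor Mir145a (chr18:61647825-61647894) and Mir143 (chr18:61649196-61649258) lie 1301 bases apart on the minus strand in GRCm38, outside the genes of GENCODE M21. miR-145-3p had 119, 72.8, 110, 73.4, 48.3 and 61.8 CPM in OldSAHA, 72.3, 117, 71.1, 65.4 and 70.7 CPM in OldVeh, and 48.4 to 125 CPM in YoungVeh with a median of 74.8. miR-145-5p had 106, 41.4, 93.7, 39.6, 42.4 and 51.4 CPM in OldSAHA, 48.5, 81.9, 42.5, 32.2 and 40.8 CPM in OldVeh, and 40.4 to 99.4 CPM in YoungVeh with a median of 56.2. The highest library of each group was again among the 4 named above. For miR-145-3p the log2 fold changes were 0.06 ± 0.23 for OldVeh against YoungVeh, 0.03 ± 0.24 for OldSAHA against OldVeh and 0.09 ± 0.22 for OldSAHA against YoungVeh (adjusted p 0.920, 0.938 and 0.813, edgeR). For miR-145-5p they were -0.24 ± 0.29, 0.35 ± 0.31 and 0.11 ± 0.27 (0.743, 0.624 and 0.815).

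The mesenchymal miR-199 products had the same pattern at lower levels. miR-199a-3p had 73.0, 45.5, 104, 47.6, 45.1 and 43.5 CPM in OldSAHA, 44.2, 78.7, 46.5, 38.2 and 44.5 CPM in OldVeh, and 45.1 to 81.6 CPM in YoungVeh with a median of 51.4. The log2 fold changes of miR-199a-3p were -0.12 ± 0.22 for OldVeh against YoungVeh, 0.25 ± 0.23 for OldSAHA against OldVeh and 0.13 ± 0.21 for OldSAHA against YoungVeh (adjusted p 0.829, 0.636 and 0.697, edgeR). miR-199b-3p, the same sequence, gave -0.11 ± 0.22, 0.24 ± 0.23 and 0.13 ± 0.20. miR-199a-5p ranged from 6.39 to 25.5 CPM in OldSAHA, from 6.43 to 15.4 CPM in OldVeh and from 4.85 to 15.4 CPM in YoungVeh, with OldSAHA 3 highest of all. Its fitted values were -0.15 ± 0.34, 0.44 ± 0.35 and 0.29 ± 0.31 (adjusted p 0.855, 0.560 and 0.540, edgeR).

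Over the 9 tested names, 0 were called for OldVeh against YoungVeh by edgeR, where 2.16% of all tested miRNAs were called. For OldSAHA against OldVeh 0 were called, where 4.32% were called among all tested, and for OldSAHA against YoungVeh 0, where 13.9% were called. None of the 9 had an unadjusted p under 0.05 in any of the 3 comparisons, and DESeq2 and limma-voom each called 0. In none of the 9 did the groups separate, whereas 3.14%, 4.91% and 3.54% of all tested miRNAs had groups that did not overlap in these 3 comparisons. The median log2 fold change of the 9 was -0.11 for OldVeh against YoungVeh, with 1 positive value, against -0.003 over all 509, with 250 positive values. For OldSAHA against OldVeh it was 0.25, with 8 positive values, against -0.01 over all 509, with 248 positive values. For OldSAHA against YoungVeh it was 0.13, with 8 positive values, against -0.03 over all 509, with 229 positive values. The 9 hold the miR-199 3p measurement under both its names and several arms of the same hairpin, so their signs are not independent.

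The signs for OldSAHA against YoungVeh changed with the processing for several of these miRNAs. OldSAHA holds 2 of the 4 high libraries, OldVeh and YoungVeh 1 each. With limma-voom, which gives libraries quality weights, 5 of the values for OldSAHA against YoungVeh became negative, from -0.18 for miR-145-5p to -0.04 for both miR-199 3p names, with miR-143-3p at -0.10. For OldSAHA against OldVeh miR-145-3p alone of the 9 changed sign, under limma-voom and with a single library left out, and the other 8 kept theirs in those fits.

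**Figure D2:**
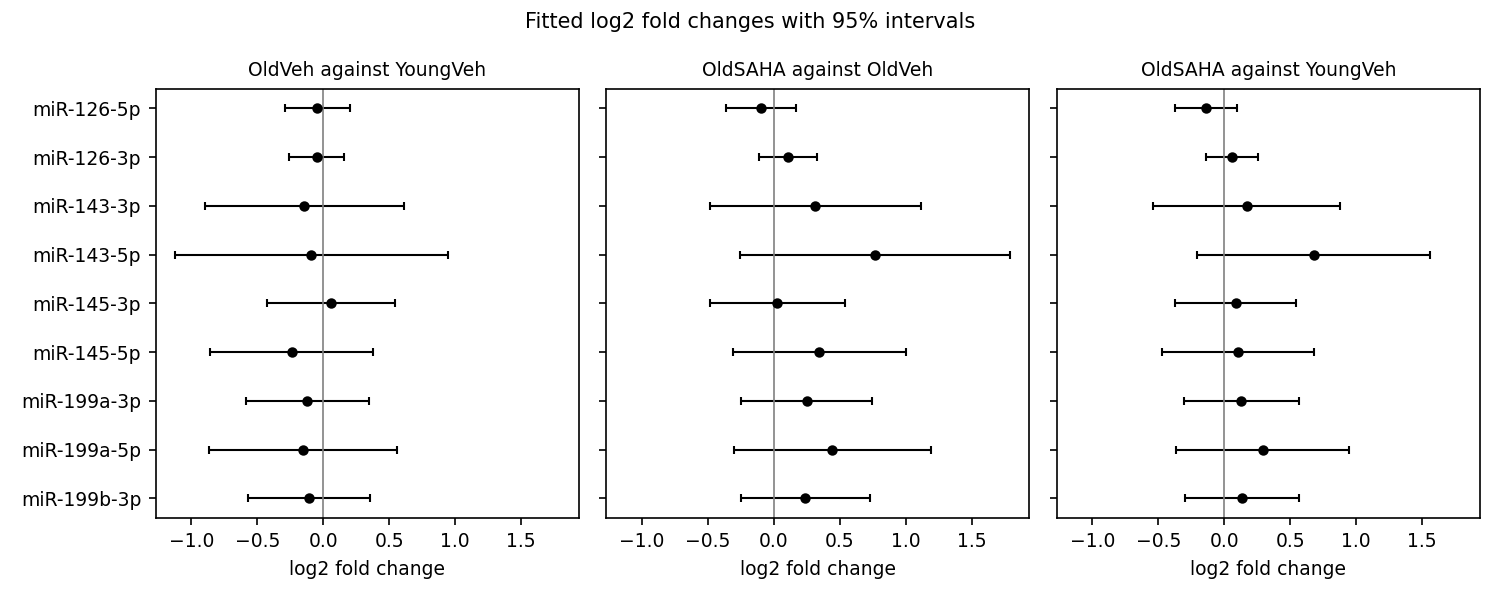
Fitted log2 fold changes (horizontal axis, points) with 95% intervals (bars) for the 9 tested miRNAs in the 3 comparisons, from 19 libraries. Each interval includes 0, and those of the miR-126 arms are the narrowest.

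Most of these miRNAs varied widely between libraries of 1 group. The within-group SD of log2 CPM was 0.60 for miR-143-3p, larger than in 97.6% of the tested miRNAs, and none of the 10 miRNAs more abundant than it had a larger one. It was 0.58 for miR-199a-5p and 0.51 for miR-145-5p, both above the 95th percentile, and 0.42 for miR-145-3p and 0.39 for miR-199a-3p. The median over all tested miRNAs was 0.21. The miR-126 arms were near it, with 0.19 for miR-126-3p and 0.23 for miR-126-5p. From the lowest to the highest library miR-143-3p spanned 3.31-fold, miR-145-5p 3.30-fold and miR-199a-5p 5.26-fold, while miR-126-5p spanned 1.78-fold and miR-126-3p 1.62-fold.

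The libraries that were high in miR-143-3p were high in the other mural and mesenchymal miRNAs too. OldSAHA 1, OldSAHA 3, OldVeh 2 and YoungVeh 4 were the 4 highest libraries for both arms of miR-143, both arms of miR-145, both arms of miR-199a, miR-199b-3p and miR-214-5p. For miR-214-5p this rank rests on 3 to 5 reads per library. YoungVeh 4, the library with the lowest total, had 3 reads of it, as did YoungVeh 1 and OldSAHA 2. For miR-214-3p 3 of them were among the highest 4, for each miR-126 arm 2, and for miR-199b-5p 1. Relative to the median library, miR-143-3p was higher by 1.09 to 1.42 on the log2 scale in these 4, miR-145-5p by 0.73 to 1.10 and miR-199a-3p by 0.61 to 1.12. miR-126-3p was higher by 0.16 to 0.36 and miR-126-5p by 0.00 to 0.28. These 4 libraries were picked by their miR-143-3p level, so their values are a description and no test was made on them.

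**Figure D3:**
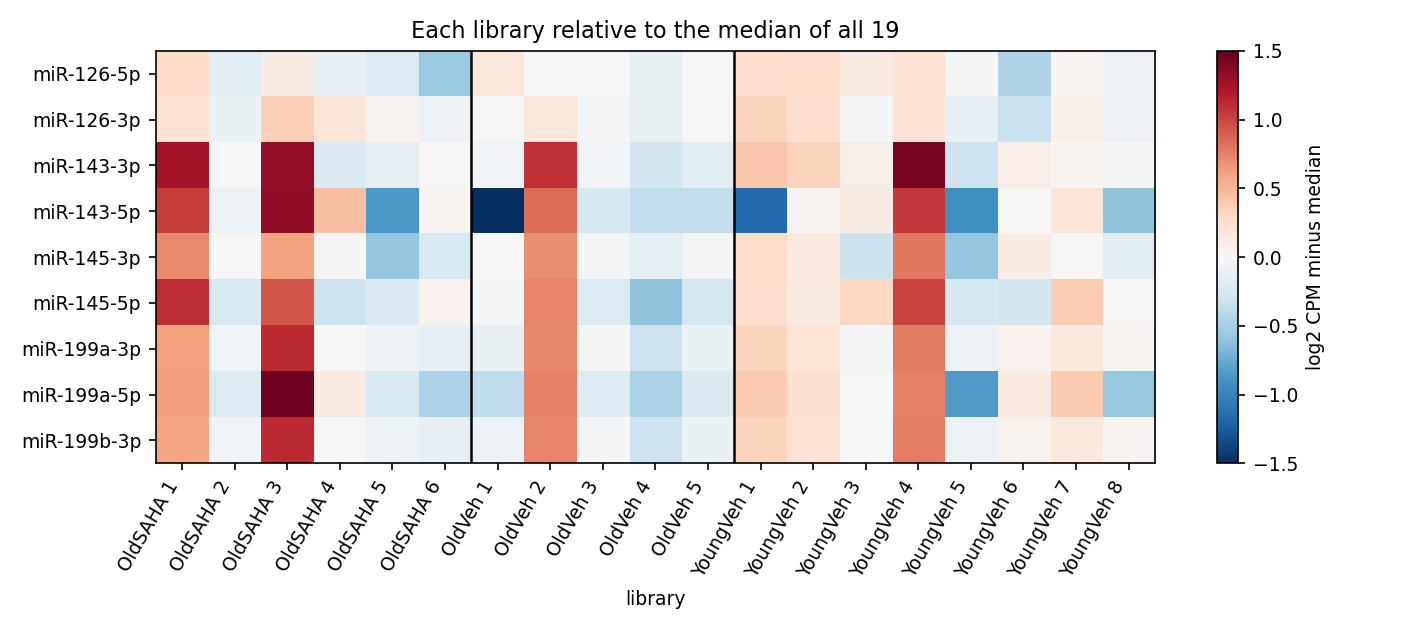
Log2 CPM of each tested miRNA (rows) in each library (columns) minus the median over all 19, in red above and blue below that median. OldSAHA 1, OldSAHA 3, OldVeh 2 and YoungVeh 4 are red for miR-143, miR-145 and miR-199 at once, by 1.09 to 1.42 for miR-143-3p.

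Marker miRNAs of other cell types were set beside these 4 libraries, as summed CPM relative to the median of all 19. The muscle list (miR-1a, miR-133, miR-206 and miR-208, 13 names, 2 tested), of whose summed CPM miR-133a-3p made up 91.3%, was at 0.29 to 0.64 on the log2 scale in the 4 and at -0.32 to 0.13 in the other 15. The fibroblast and mesenchyme list (12 names) was at 0.12 to 0.55 in the 4 and at -0.20 to 0.16 in the rest. miR-21-5p made up 63.5% of its sum. Without miR-21-5p this list was at 0.14 to 0.23 in the 4 and at -0.23 to 0.11 in the rest, which do not overlap. Erythrocyte miRNAs were at -0.08 to 0.19 in the 4 and at -0.36 to 0.42 in the rest, and choroid plexus miRNAs at 0.07 to 0.23 and at -0.47 to 0.29. Of these sums miR-486-5p made up 95.1% and miR-204-5p 90.3%. miR-133a-3p by itself was at 0.35 to 0.66 in the 4 and at -0.28 to 0.15 in the rest, so its ranges did not overlap, while the muscle list without it was at -0.04 to 0.77 and at -0.69 to 0.52. miR-451, the erythrocyte miRNA correlated below, was at 0.00 to 0.52 in the 4 and at -0.44 to 0.35 in the rest, which overlap.

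The lists of the remaining cell types also overlapped between the 4 libraries and the other 15. Endothelial-associated miRNAs were at -0.05 to 0.34 in the 4 and at -0.20 to 0.19 in the rest, and neuronal miRNAs at -0.26 to 0.00 and at -0.24 to 0.12. miR-27b-3p made up 74.9% of the endothelial-associated sum, and miR-338-3p 78.8% of the oligodendrocyte sum that follows. Oligodendrocyte miRNAs were at -0.13 to 0.94 in the 4 and at -0.34 to 0.39 in the rest, and leukocyte miRNAs at -0.005 to 0.78 and at -0.13 to 0.31, with the highest values of both in OldSAHA 1. Names with no read in any library were 5 minor or rare names of the muscle list (miR-1a-2-5p, miR-133b-5p, miR-206-5p, miR-208a-5p and miR-208b-5p) and 3 of the choroid plexus list (miR-211-3p, miR-449b and miR-449c-3p). The endothelial-associated list had 1 such name, miR-92a-2-5p, and the fibroblast, erythrocyte, leukocyte, oligodendrocyte and neuron lists had 0. Total counts were lowest of all 19 in YoungVeh 4 and from 5012682 to 5410804 in the other 3. The part of these markers and of depth in the levels of miR-143, miR-145 and miR-199a was not tested.

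Across libraries, 13 pairs of miRNAs were correlated on log2 CPM, with permutation p-values adjusted over the 13. Both miRNAs of a pair share the depth and scaling of each library. The miR-126 arms, which come from 1 hairpin, had r = 0.71 (n = 19, permutation p 0.000830, adjusted 0.00292) and rho = 0.71 (permutation p 0.00108), and r = 0.63 without OldSAHA 6 and YoungVeh 6, the 2 libraries farthest from the median. Since miR-143-3p formed separate clusters, its pairs were taken over the 15 lower libraries alone. There miR-143-3p and miR-145-3p had r = 0.61 (adjusted permutation p 0.0361) and rho = 0.51 (adjusted permutation p 0.0776), and r was 0.37 without YoungVeh 1 and YoungVeh 2, so the relation rests on those libraries. The other pairs of miR-199a-3p kept all 19 libraries. The 4 libraries high in miR-143-3p were also its highest, at 73.0 to 104 CPM against at most 60.1 CPM in the rest. Leaving out the 2 farthest libraries kept at least OldSAHA 1 and OldVeh 2 in these pairs. Whether their r rests on the 4 libraries was not tested.

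miR-143-3p and miR-199a-3p, which come from different chromosomes, had r = 0.82 over the 15 libraries (adjusted permutation p 0.00286) and rho = 0.69 (adjusted permutation p 0.0212). Without YoungVeh 1 and YoungVeh 2 r was 0.57, with an adjusted p of 0.0703 by permutation. miR-126-5p had r = 0.37 with miR-143-3p over these 15 (adjusted permutation p 0.227, rho = 0.30), and r = 0.76 without OldSAHA 6 and YoungVeh 6 (adjusted permutation p 0.0274). With miR-199a-3p, miR-126-5p had r = 0.48 over 19 libraries (adjusted permutation p 0.0537, rho = 0.54), and 0.53 without the same 2 libraries. Whether these correlations differ from each other was not tested.

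Within the miR-199 and miR-214 group, miR-199a-3p had r = 0.71 with miR-214-3p, its neighbour in Dnm3os (n = 19, adjusted permutation p 0.00292, rho = 0.56). It was 0.44 without OldSAHA 3 and YoungVeh 4, and the 0 to 14 reads of miR-214-3p make it imprecise. With miR-199b-5p, the arm of the miR-199b hairpin that differs in sequence, r was 0.22 (adjusted permutation p 0.399, rho = 0.26, and r = 0.34 without those 2 libraries).

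The blood miRNA miR-451 and the choroid plexus miRNA miR-204-5p were correlated with the same miRNAs. Over all 19 libraries, the 4 high ones included, miR-199a-3p had r = 0.71 with miR-451 (adjusted permutation p 0.00286, rho = 0.78), and 0.60 without OldSAHA 3 and YoungVeh 4 (adjusted permutation p 0.0307). With miR-204-5p it had r = 0.57 (adjusted permutation p 0.0286, rho = 0.62) and 0.52 without those 2 (0.0703). miR-143-3p had r = 0.58 with miR-451 and 0.57 with miR-204-5p over its 15 libraries (adjusted permutation p 0.0434 and 0.0446, rho = 0.55 and 0.58). Without YoungVeh 1 and YoungVeh 2 these were 0.34 and 0.33, so both rest on those libraries. For miR-126-5p r was 0.30 with miR-451 and 0.20 with miR-204-5p (adjusted permutation p 0.252 and 0.420, rho = 0.41 and 0.33). Without OldSAHA 6 and YoungVeh 6 they were 0.63 (adjusted permutation p 0.0307) and 0.43 (0.127).

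**Figure D4:**
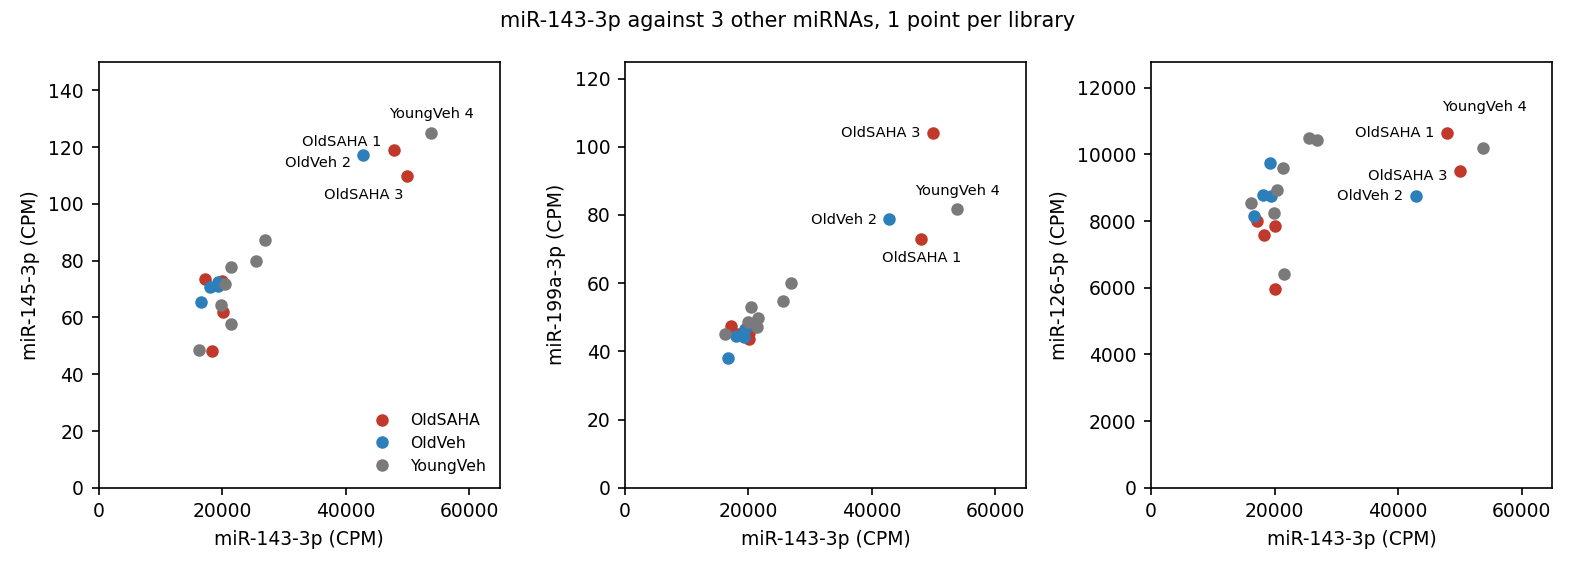
Levels of miR-145-3p, miR-199a-3p and miR-126-5p (vertical axes, CPM) against miR-143-3p (horizontal axis, CPM), with 1 point per library. The 4 named libraries, at 42865 to 53768 CPM of miR-143-3p, are also highest for miR-145-3p and miR-199a-3p but lie within the range of the others, or close above it, for miR-126-5p.

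The miRNAs whose log2 CPM followed each of them most closely over the 19 libraries were ranked among the other 500 tested miRNAs, as a description. For miR-143-3p they were miR-133a-3p (r = 0.91), miR-10b-5p (0.87) and miR-223-3p (0.81). The same 3 led for miR-199a-3p (0.87, 0.82 and 0.79) and for miR-145-3p, where miR-10b-5p had 0.83 and the other two 0.82 each. Over the 15 libraries outside the high ones the values for miR-143-3p were 0.55 with miR-133a-3p, 0.86 with miR-10b-5p and 0.35 with miR-223-3p. In the same order they were 0.43, 0.75 and 0.30 for miR-199a-3p over these 15, and 0.38, 0.61 and 0.54 for miR-145-3p. For miR-126-5p the closest were miR-140-5p (0.70), miR-30b-3p (0.69) and miR-574-3p (0.64), none of which was among the closest 3 of the other miRNAs.

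The ratio of the arms within a library does not depend on scaling. miR-126 favoured its 5p arm, which had 7.25 times the count of the 3p arm at the median (range 5.25 to 8.06) and 87.4% ± 1.28 of the pair (SD, n = 19). For the other names the 3p count was the higher one at the median. miR-143-3p had 5817 to 49319 times the count of miR-143-5p, miR-145-3p 1.43 times that of miR-145-5p (0.944 to 2.03), and miR-199a-3p 5.31 times that of miR-199a-5p (4.08 to 9.28). Reads of the miR-199 3p sequence from Mir199b cannot be told apart from those of the miR-199a loci. The miR-199a ratio therefore compares counted names and may not be that of the miR-199a hairpins alone. Although the miR-143 and miR-145 precursors are neighbours, the count of miR-143-3p was 180 times that of both miR-145 arms summed (median, range 150 to 245).

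The miR-126 ratio was 7.59, 6.99, 6.12, 5.87, 6.07 and 5.25 in OldSAHA, against 8.06, 6.50, 7.42, 7.29 and 7.32 in OldVeh and 6.70 to 8.05 in YoungVeh. In 4 of the 6 OldSAHA libraries it was below all vehicle libraries, and in the other two it lay among them. On the log2 scale it averaged 2.65 ± 0.19 in OldSAHA, 2.87 ± 0.11 in OldVeh and 2.86 ± 0.09 in YoungVeh (SD, n = 6, 5 and 8). The difference was -0.21 for OldSAHA against YoungVeh (exact two-sided permutation p 0.0140, 0.168 after adjustment over 12 arm ratio tests) and -0.22 for OldSAHA against OldVeh (exact permutation p 0.0519, adjusted 0.224). For OldVeh against YoungVeh it was 0.01 (exact permutation p 0.909). The first of these passed the adjusted threshold without OldSAHA 1 (-0.27, exact permutation, adjusted p 0.0280) and without OldSAHA 1 and YoungVeh 6 together (-0.28, adjusted 0.0303). With all libraries it is not called. OldSAHA 1 had the highest ratio of OldSAHA (7.59) and YoungVeh 6 the lowest of YoungVeh (6.70). Leaving them out therefore widens the difference by itself, and these passes are no separate support for it.

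The miR-145 ratio, 5p over 3p on the log2 scale, averaged -0.42 ± 0.33 in OldSAHA, -0.73 ± 0.20 in OldVeh and -0.39 ± 0.31 in YoungVeh. OldVeh differed from YoungVeh by -0.34 (exact permutation p 0.0559, adjusted 0.224) and OldSAHA from OldVeh by 0.30 (exact permutation p 0.110, adjusted 0.331). The miR-143 ratio had the largest differences, 0.55 for OldSAHA against OldVeh and 0.44 for OldSAHA against YoungVeh (exact permutation p 0.245 and 0.206, both 0.489 after adjustment), with 2 to 32 reads of its 5p arm per library. None of the 12 arm ratio tests passed the adjusted threshold, with the smallest p that the designs allow at 0.000777, 0.00216 and 0.000333 for the 3 comparisons. The miR-199a ratio differed by at most 0.12 between groups.

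**Figure D5:**
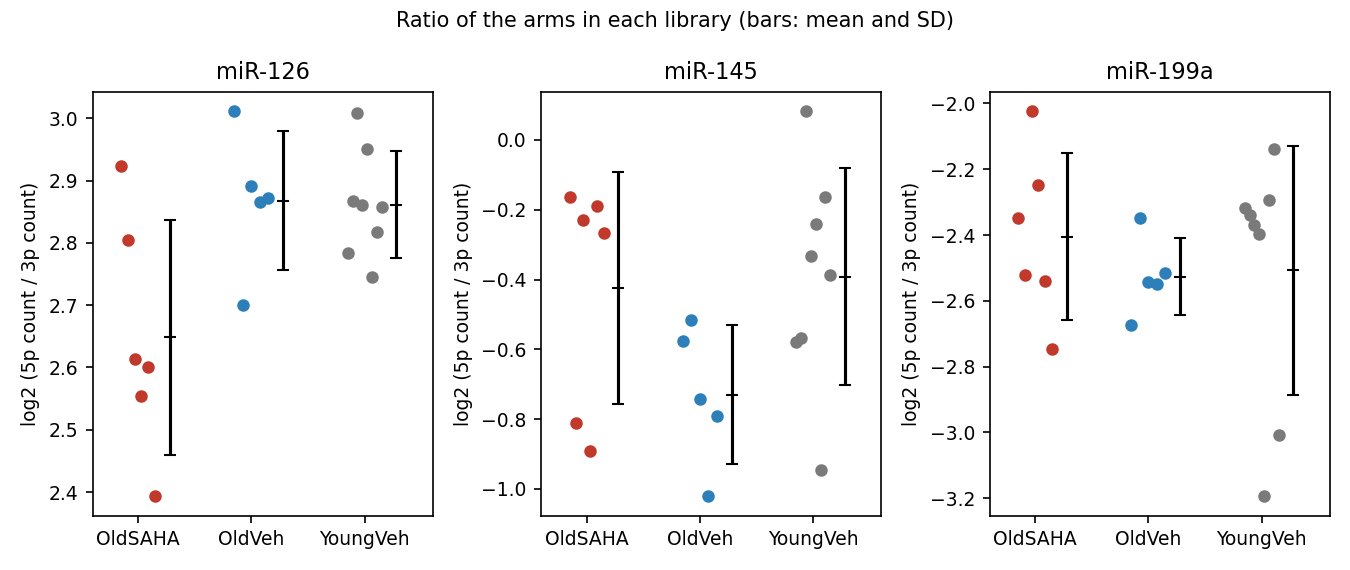
Log2 of the 5p over the 3p count in each library (vertical axis, points) with the group mean and SD (bars) for miR-126, miR-145 and miR-199a. The miR-199a-3p count may include reads from Mir199b, whose 3p sequence is the same. For miR-126, 4 of 6 OldSAHA libraries lie below all OldVeh and YoungVeh libraries, with means of 2.65, 2.87 and 2.86.

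Other miRNAs named in vascular and mesenchymal cells were read from lists. Of 21 tested names of the endothelial-associated list, 0 were called for OldVeh against YoungVeh by edgeR (2 at an unadjusted p under 0.05), where 0.196% of all tested miRNAs rose and 1.96% fell. For OldSAHA against OldVeh, where 1.18% of all tested rose and 3.14% fell, 1 fell, miR-222-3p, an angiogenesis-related miRNA, with 2544 CPM in OldSAHA and 3405 CPM in OldVeh (log2 fold change -0.42 ± 0.09, adjusted p 0.00937). For OldSAHA against YoungVeh 5 rose and 0 fell, where 5.3% of all tested miRNAs rose and 8.64% fell. They were miR-10a-5p from a Hox cluster (317 CPM in OldSAHA, 124.2 CPM in YoungVeh, 1.35 ± 0.25, adjusted p 0.00118), both arms of the hypoxia-induced miR-210 (0.67 ± 0.14 for miR-210-3p and 0.69 ± 0.17 for miR-210-5p), miR-24-3p (0.26 ± 0.08) and miR-27a-3p (0.22 ± 0.07). The call of miR-24-3p ended without YoungVeh 3, OldSAHA 1, OldSAHA 2 or OldSAHA 6 (highest adjusted p 0.0605), and that of miR-27a-3p without YoungVeh 1, 3, 5, 7 or 8 or OldSAHA 1 or 3 (0.0939). Both also ended without OldSAHA 1 and YoungVeh 6 together (adjusted p 0.0826 for miR-24-3p and 0.0977 for miR-27a-3p by edgeR), and that of miR-27a-3p with limma-voom (0.0911) and with replicate number as a block (0.119). Markers of other cells passed the edgeR test in the same comparison. Of 7 tested leukocyte and microglia miRNAs 3 rose, among them miR-155-5p (1.68 ± 0.31) and miR-146a-5p (0.95 ± 0.16), and 1 fell. Of 5 oligodendrocyte miRNAs 1 rose, miR-219-2-3p (0.61 ± 0.13), and of 17 neuronal miRNAs 3 fell, among them miR-128-3p (-0.46 ± 0.08). For OldSAHA against OldVeh, where miR-222-3p fell, 3 of the 17 neuronal miRNAs fell too. Among them was miR-128-3p (-0.44 ± 0.08, adjusted p 0.00343 by edgeR), while 0 leukocyte or oligodendrocyte names were called there. Their part in the endothelial list's values was not tested. The median of the list was 0.13, 0.07 and 0.15 for the 3 comparisons.

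Of the 2 tested muscle miRNAs, miR-1a-3p rose in OldSAHA against OldVeh, with 7.05 CPM in OldSAHA and 3.53 CPM in OldVeh (0.99 ± 0.25, adjusted p 0.0217), and against YoungVeh (0.79 ± 0.22, adjusted p 0.0163), where 1.18% and 5.3% of all tested miRNAs rose. The first call ended without OldVeh 1, 3, 4 or 5 or OldSAHA 6 (highest adjusted p 0.0761), and the second without OldSAHA 1 and YoungVeh 6 together (0.0576). miR-133a-3p, the closest to miR-143-3p over all 19 libraries but not over the 15 lower ones, was called in neither. Of 11 tested fibroblast and mesenchyme miRNAs, 0 were called for age and 0 for SAHA at 20 months by edgeR (2 and 1 at an unadjusted p under 0.05), and for OldSAHA against YoungVeh miR-497-5p, a relative of miR-15 and miR-16, fell by 0.30 ± 0.09 on the log2 scale (adjusted p 0.0240). That is 1 of 11 names, near the 8.64% of all tested miRNAs that fell. The call of miR-497-5p ended without OldSAHA 2 or OldSAHA 5 (highest adjusted p 0.0610), and when library size alone was used for scaling or only the groups compared were fitted. Other tools moved these counts. DESeq2 called 1 endothelial name higher for age, miR-10a-5p, and limma-voom 0. In OldSAHA against OldVeh both called miR-24-2-5p higher beside miR-222-3p lower. For OldSAHA against YoungVeh DESeq2 called 7 endothelial names higher and limma-voom 5. In the fibroblast list both called 0 for age. Between OldSAHA and OldVeh DESeq2 called 0 and limma-voom miR-455-3p lower, and for OldSAHA against YoungVeh limma-voom called miR-195-5p lower beside miR-497-5p, DESeq2 the last alone. The miRNAs that only another tool called are named after their values were seen.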

How the data were processed

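Small RNA was counted in 19 CA1 libraries. The deposited files hold raw counts, as whole numbers for each mature miRNA, with no normalisation by the authors. Per the labels, TruSeq libraries were made from total RNA, and the submitters' processing notes name CASAVA 1.8.2, cutadapt, STAR, HTSeq and mm10 without settings. The 4 HTSeq summary lines were 0 in every library and were left out, so the share of unassigned reads is unknown. Reads carry no molecular identifiers, so floors (3 reads) cover counting error only.

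Of 1148 names, 255 had no count. filterByExpr (minimum count 10, minimum total 15) kept 509, and 639, including miR-199b-5p and both miR-214 arms, were not tested. The fit used TMM factors (0.941 to 1.08) and the quasi-likelihood F test of edgeR 4.0.16 in R 4.3.3 (robust, 1 term per group, all 19 libraries, common biological coefficient of variation 0.152). A miRNA was called where its p, adjusted by Benjamini-Hochberg over the 509, was under 0.05. CPM were scaled by TMM. Arm ratios (pseudocount 0.5) were tested by exact permutation, two-sided, and correlations used 100000 permutations. Pairs with miR-143-3p were planned over 19 libraries but computed over 15, since 4 libraries form a separate cluster, which was chosen after seeing the data. The steps were tested on simulated data.

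Alternatives were median-ratio (RLE) size factors, library size alone, no filter, DESeq2 1.42.0, limma-voom (limma 3.58.1), only the groups compared, a replicate block, a pseudocount of 1, group means removed, each library left out, and OldSAHA 1 and YoungVeh 6 left out. The miRNAs and lists were chosen with earlier results of these data known. All members are named, with the 3 closest miRNAs of each main arm (miR-214 was not tested and has none) and the called miRNAs of the vascular lists. Within groups, the 53 library pairs differed beyond sampling noise (chi-square per degree of freedom 27.6 to 333). The labels give no sequencing batch.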

Additional observations from a re-analysis of the deposited data

Results flagged for a closer look

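Of 39 groups of libraries examined for a value far from the others, 11 had one, where chance gives about 1 in 20, or 1.95. These are not independent, since 10 of the 11 come from the same 2 libraries, and both names of the miR-199 3p sequence are among them. OldVeh 2 stood above the other OldVeh libraries in miR-143-3p (42865 CPM), miR-145-3p (117 CPM), miR-199a-3p (78.7 CPM), miR-199a-5p (15.4 CPM) and miR-199b-3p (39.1 CPM). YoungVeh 4 stood above the other YoungVeh libraries in miR-143-3p (53768 CPM), miR-143-5p (4.73 CPM), miR-145-5p (99.4 CPM), miR-199a-3p (81.6 CPM) and miR-199b-3p (40.2 CPM). In OldSAHA the 2 high libraries lie near each other in miR-143-3p, so neither is far from its nearest neighbour. The log2 ratio of miR-143-5p to miR-143-3p was lowest in OldVeh 1 (-15.27), where miR-143-5p had 2 reads. Reads were present for 3 miRNAs outside the tests, with 58 for miR-199b-5p, 83 for miR-214-3p and 35 for miR-214-5p over all libraries.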

How the results depend on the processing

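Each alternative of the fit called 0 of the 9 tested miRNAs, except that leaving out OldSAHA 1 and YoungVeh 6 together called 1 for OldSAHA against YoungVeh, miR-126-5p. OldSAHA 1 held the highest miR-126-5p level and miR-126 arm ratio of OldSAHA, and YoungVeh 6 the lowest of YoungVeh. Their loss by itself widens both differences. Of 558 fold changes under all alternatives 1 was called, and of the 342 with 1 library left out 0. The following values changed sign or side of the threshold, and the cause was not tested. With limma-voom, miR-145-3p was -0.11 for OldSAHA against OldVeh, and for OldSAHA against YoungVeh miR-143-3p was -0.10, miR-145-3p -0.058, miR-145-5p -0.18, miR-199a-3p -0.045 and miR-199b-3p -0.035. Without OldSAHA 1 and YoungVeh 6, miR-145-3p was -0.12 for OldSAHA against OldVeh, and for OldSAHA against YoungVeh miR-126-3p was -0.011, miR-143-3p -0.068, miR-145-3p -0.051 and miR-145-5p -0.17. The arm ratios without both were -0.010 for miR-126 and 0.012 for miR-199a in OldVeh against YoungVeh, and -0.28 for miR-126 in OldSAHA against YoungVeh.

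With each library left out in turn, fold changes for OldVeh against YoungVeh ranged from -0.10 to 0.0050 for miR-126-5p, -0.47 to 0.10 for miR-143-3p, -0.59 to 0.19 for miR-143-5p, -0.11 to 0.19 for miR-145-3p and -0.31 to 4.76e-05 for miR-199b-3p. For OldSAHA against OldVeh miR-145-3p ranged from -0.11 to 0.22. For OldSAHA against YoungVeh the ranges were -0.058 to 0.41 for miR-143-3p, -0.055 to 0.22 for miR-145-3p, -0.11 to 0.25 for miR-145-5p, -0.11 to 0.23 for miR-199a-3p, -0.091 to 0.41 for miR-199a-5p and -0.10 to 0.22 for miR-199b-3p. The ends of most of these ranges come from leaving out OldSAHA 1, OldSAHA 3, OldVeh 2 or YoungVeh 4. Arm ratio differences ranged from -0.030 to 0.048 (miR-126), -0.31 to 0.27 (miR-143) and -0.12 to 0.034 (miR-199a) for OldVeh against YoungVeh. For OldSAHA against YoungVeh they ranged from -0.11 to 0.060 (miR-145) and from -0.27 to -0.16 (miR-126, adjusted p by exact permutation 0.0280 to 0.317).

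Among correlations, r of miR-126-5p with miR-199a-3p passed the threshold with library size alone (0.49) and with group means removed (0.55), and miR-143-3p with miR-451 lost it with group means removed (0.47). Leaving out the 2 farthest libraries ended the calls of miR-143-3p with miR-145-3p (0.37), miR-199a-3p (0.57), miR-451 (0.34) and miR-204-5p (0.33), and of miR-199a-3p with miR-214-3p (0.44) and miR-204-5p (0.52). It gave calls for miR-126-5p with miR-143-3p (0.76) and miR-451 (0.63).

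The labels do not say that replicate numbers pair the libraries, and same-numbered libraries did not deviate together (r from -0.32 to 0.31 over 16 pairs, 4 of them over 0.1). With the replicate block 0 members were called, and over all tested miRNAs 8, 15 and 58 were called for the 3 comparisons, against 11, 22 and 71 without it. Over all tested miRNAs DESeq2 called 20, 39 and 90, limma-voom 23, 46 and 83, and fits of only the groups compared 19, 16 and 59. Depth limits miR-143-5p, miR-199b-5p and miR-214, and the number of libraries and the spread of miR-143, miR-145 and miR-199a limit the rest.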
